A study of Mus musculus with 48 samples.

Results

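Galanin is a neuropeptide, and its gene Gal and its 3 receptor genes Galr1, Galr2 and Galr3 were followed in preoptic area RNA of mice as 4 of the 23284 genes of the deposited count table. The 4 were taken by gene symbol. The study asked how prenatal androgen alters the transcripts of gonadotropin-releasing hormone (GnRH) neurons, the cells that drive the reproductive axis, and of the tissue around them. Ribosomes of GnRH neurons carried the protein L10a fused to green fluorescent protein, so that RNA on those ribosomes could be immunoprecipitated (IP), and libraries were also made from what the capture left, the GnRH-depleted supernatant.

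All mice of the 8 groups were GnRH CRE x Floxed L10a-GFP offspring, in which Cre under GnRH control switches on the tag. They were adult or young and had been exposed before birth to DHT (dihydrotestosterone, an androgen that is not converted to estradiol) or to vehicle. The IP groups were adult DHT (6 libraries), adult vehicle (5), young DHT (6) and young vehicle (6), and the supernatant groups had the same numbers. A further IP and supernatant library, 1 each, came from young Floxed L10a-GFP mice without Cre, whose label for prenatal treatment reads NoGFP. The series title names female mice, and the collection protocol speaks of diestrous adult females and also of both sexes. The labels do not say whether a library is 1 animal or a pool, nor give ages in days, and p-values therefore speak only of the spread among libraries.

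The 23 IP libraries of Cre mice held 28672561 to 47054031 counts each, and the 23 supernatant libraries 28136004 to 55479453. Gnrh1, which marks the captured neurons, ran from 664 to 16067 CPM (reads relative to the library total) in IP and from 19.9 to 50.4 CPM in supernatant, and no library of one fraction reached the other. Without Cre, Gnrh1 was at 61.6 CPM in IP and 38.2 CPM in supernatant. Of the genes tested between fractions, the share with no read had a median of 9.58% (adult DHT), 9.97% (adult vehicle), 5.37% (young DHT) and 6.09% (young vehicle) per IP library and stayed at or below 1.31% in every supernatant library of Cre mice.

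As background, Gal encodes a precursor from which the amidated peptide galanin is cut. Galr1 and Galr3 encode receptors that couple to Gi/Go proteins, which restrain adenylyl cyclase and open inwardly rectifying potassium (GIRK) channels, and Galr2 encodes a receptor that couples mainly to Gq and phospholipase C. In rodents galanin is made by part of the GnRH neurons, where it responds to estrogen, and by neurons of the medial preoptic area that take part in parental behaviour. The stretch of the Gal coding sequence that encodes the peptide is shown because each Gal count below is a read from the transcript that carries it. It was read from the GRCm38 genome (mm10) and the GENCODE M21 annotation, lies on the minus strand in exon 3 (chr19:3413295-3413340) and exon 4 (chr19:3411592-3411647), and was the same in both annotated coding transcripts, of 141 and 124 codons. Capitals mark the basic codon pair before the 29 codons of galanin and, after them, the glycine codon that supplies the amide and the second basic pair.
Gal: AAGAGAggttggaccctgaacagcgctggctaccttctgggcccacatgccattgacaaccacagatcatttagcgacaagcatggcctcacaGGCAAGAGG

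In GENCODE M21, Gal (ENSMUSG00000024907) spans chr19:3409915-3414544 on the minus strand, Galr1 (ENSMUSG00000024553) spans chr18:82392380-82406777 on the minus strand, and Galr2 (ENSMUSG00000020793) spans chr11:116280939-116283938 on the plus strand. None of these overlaps another annotated gene. Galr3 (ENSMUSG00000114755) spans chr15:79041885-79043558 on the plus strand, and its first exon overlaps the last exon of a transcript of Gcat, which encodes an enzyme of threonine breakdown, on the same strand. Galr3 was the 1 member whose counts carried decimals, so its reads may be shared with Gcat and its values are uncertain. Gcat itself did not pass the test between IP and supernatant, with a log2 fold change of 0.17 ± 0.12 (SE, adjusted p = 0.237).

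Gal was the abundant member and the receptors were scarce in both fractions. Per kilobase of exon, Gal averaged 163 CPM in the 23 IP libraries and 102 CPM in the 23 supernatant libraries. On the same scale Galr1 averaged 0.693 CPM in IP and 0.812 CPM in supernatant, Galr3 averaged 0.291 and 0.748 CPM in IP and supernatant, and Galr2 averaged 0.00133 and 0.0717 CPM in IP and supernatant. Gnrh1 averaged 7759 CPM per kilobase in IP and 53.8 in supernatant, so even in IP the level of Gal stayed far below that of Gnrh1.

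Gal was higher in IP than in supernatant over the 4 conditions, by 1.60-fold on average (log2 fold change 0.68 ± 0.13, adjusted p = 3.28e-05, edgeR's quasi-likelihood test with Benjamini-Hochberg adjustment over 16660 genes). In this comparison 46.1% of all genes tested passed, 24.4% as higher and 21.7% as lower in IP, so a pass alone sets Gal apart from few genes. Within conditions, Gal passed in the adults and not in the young.

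In adult DHT mice Gal had a lowest value of 59.5, a median of 112 and a highest value of 210 CPM in the 6 IP libraries, against 52.7, 83.3 and 97.6 CPM in the 6 supernatant libraries. The fractions overlapped, and the difference was 1.66-fold (log2 0.73 ± 0.26, adjusted p = 0.0369, edgeR), where 11.6% of genes passed as higher. That call was lost under voom with sample weights (adjusted p = 0.204), when only these 2 groups were fitted (adjusted p = 0.107) and in 7 of the 12 fits that left out 1 library, with adjusted p up to 0.154 without IP adult DHT replicate 6. In adult vehicle mice Gal was at 125, 131, 215, 350 and 290 CPM in the IP libraries and at 80.3, 130, 85.1, 108 and 134 CPM in the supernatant libraries. The 3 highest IP libraries lay above every supernatant library, and the lowest 2 lay within the supernatant range. The difference was 2.25-fold (log2 1.17 ± 0.28, adjusted p = 0.0022, edgeR), where 12.8% of genes tested passed as higher in IP.

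In young DHT mice Gal ran from 71.3 through a median of 99.6 to 131 CPM in IP, against 56.7, 75.0 and 102 CPM in supernatant. In young vehicle mice it ran from 52.7 through 76.5 to 101 CPM in IP, against 42.0, 60.4 and 88.1 CPM in supernatant. The fractions overlapped in both, and neither difference passed, at 1.35-fold for young DHT (adjusted p = 0.273, with 20.0% of all genes passing) and 1.31-fold for young vehicle (adjusted p = 0.335, with 21.9% passing). In the mice without Cre, Gal was at 57.8 CPM in IP (95% Poisson interval 55.3 to 60.5, counting error only) and at 45.5 CPM in supernatant (43.4 to 47.7), a ratio of 1.27 with no replicate. The fitted IP-to-supernatant folds of young Cre mice lay close to the ratio seen where no ribosome carried the tag. That ratio is a plain CPM ratio of 1 library per fraction and not a fitted fold, so the measures differ. The adult folds had no matching library without Cre, and the part of background capture in any fold was not tested.

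Whether the IP-to-supernatant difference of Gal itself changed with age or treatment was tested as an interaction in the same fit. Adult minus young, the log2 difference was 0.30 ± 0.36 in DHT mice (adjusted p = 0.884, edgeR) and 0.78 ± 0.38 in vehicle mice (adjusted p = 0.412). DHT minus vehicle, it was -0.44 ± 0.38 in adults (adjusted p = 0.926) and 0.04 ± 0.36 in the young (adjusted p = 1.00). Over all genes these contrasts called 0.882%, 1.04%, 0.114% and 0.0% in the same order. None passed for Gal, so the fractions' calls in adults and not in the young do not by themselves show a difference between ages.

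**Figure D1:**
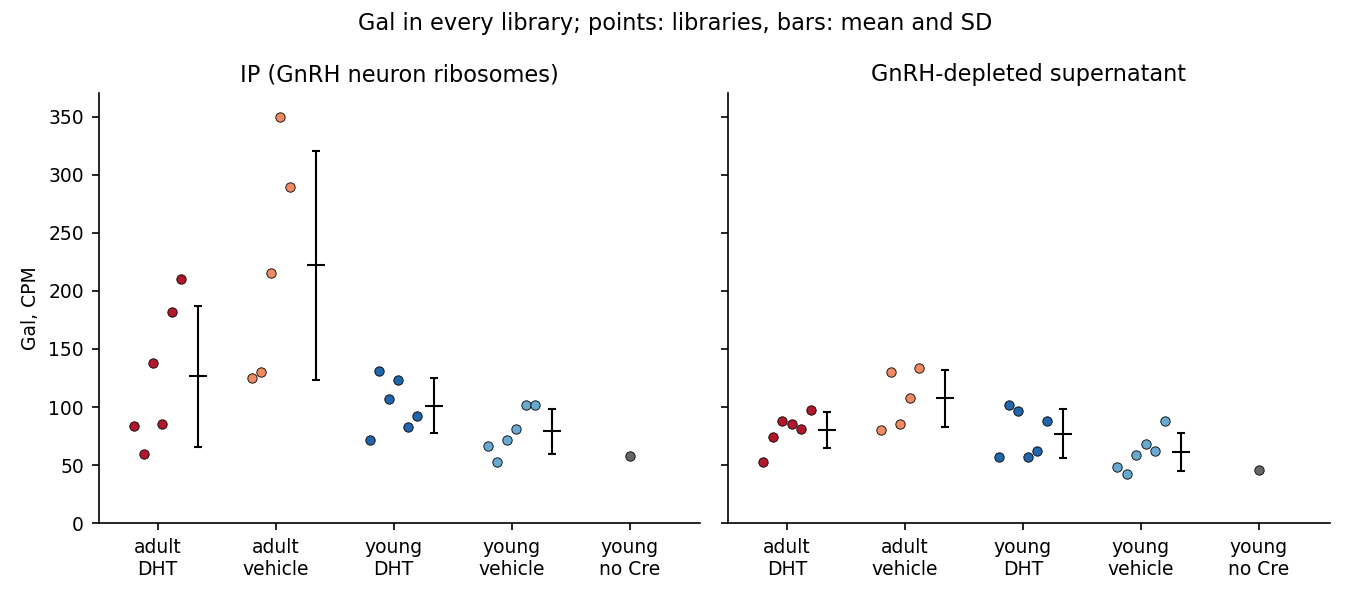
Gal in CPM (vertical axis) in every library, by age and prenatal treatment, with IP at left and GnRH-depleted supernatant at right; each point is a library and the bars give mean and SD. Adult vehicle IP libraries averaged 222 CPM and all 5 lay above the young vehicle IP libraries, whose highest was at 101 CPM.

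By group mean, Gal was highest in adult vehicle IP (222 ± 98.5 CPM, SD, n = 5), then in adult DHT IP (126 ± 60.4, n = 6), adult vehicle supernatant (107 ± 24.7, n = 5), young DHT IP (101 ± 23.5, n = 6), adult DHT supernatant (79.9 ± 15.4, n = 6), young vehicle IP (79.1 ± 19.5, n = 6), young DHT supernatant (77.2 ± 20.7, n = 6) and young vehicle supernatant (61.3 ± 16.1, n = 6). Each group's libraries overlapped those of its neighbour in this order, so no step between neighbours was larger than the spread. The spread was widest in adult IP.

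Gal rose with age in vehicle mice, in IP and in supernatant alike. In IP the adult vehicle libraries ran from 125 to 350 CPM and the young vehicle libraries from 52.7 to 101 CPM, without overlap. The rise was 2.88-fold (log2 1.52 ± 0.30, adjusted p = 0.00499, edgeR over 15890 genes), in a contrast where 3.83% of genes passed, 2.04% as higher and 1.79% as lower, and where 1.62% of genes had all adult above all young libraries. Leaving out any 1 library gave log2 1.29 to 1.68 with adjusted p of at most 0.0204. In supernatant the adult vehicle libraries ran from 80.3 to 134 CPM and the young vehicle libraries from 42.0 to 88.1 CPM, with overlap. That rise was 1.73-fold (log2 0.79 ± 0.20, adjusted p = 0.0066, edgeR over 16286 genes), in a contrast where 20.3% of genes passed, 10.1% as higher and 10.2% as lower.

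In DHT mice the change with age did not pass in either fraction. Adult DHT IP libraries had a median of 112 CPM and young DHT IP libraries 99.6 CPM, a log2 fold change of 0.34 ± 0.28 (adjusted p = 0.582, edgeR, with 7.12% of genes passing). Adult and young DHT supernatant had medians of 83.3 and 75.0 CPM, a log2 fold change of 0.04 ± 0.19 (adjusted p = 0.899, with 19.9% passing). The difference between the age changes is the DHT-by-age interaction given further on, which did not pass. Gnrh1 itself was higher in adult than in young DHT mice by log2 0.75 ± 0.48 in IP (adjusted p = 0.414, edgeR). In DHT supernatant it passed, at log2 0.51 ± 0.17 (adjusted p = 0.0399, edgeR).

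Other signals moved with age in the same libraries. Of all genes tested, 2.04% passed as higher and 1.79% as lower with age in vehicle IP. In vehicle supernatant 10.1% passed as higher and 10.2% as lower. Of 5 oligodendrocyte markers (Mbp, Mog, Mag, Mobp and Cnp, all detected), 3 were lower in adult than in young vehicle IP and all 5 in supernatant. Their summed level was 1197 to 1714 CPM in adult vehicle IP against 2892 to 3910 CPM in young vehicle IP, and 1581 to 2493 CPM in adult vehicle supernatant against 4046 to 5277 CPM in young vehicle supernatant. The summed level of 6 astrocyte markers was also lower without overlap in IP, at 181 to 335 CPM in adult vehicle against 373 to 528 CPM in young vehicle mice. Of the 6, Gfap passed as lower, while their median log2 fold change was 0.13, so the sum does not stand for every marker. In vehicle supernatant the astrocyte sums overlapped, at 359 to 604 CPM in adults and 435 to 553 CPM in the young. There 1 astrocyte marker passed as higher and 0 as lower. The sum of 4 endothelial markers was 0.0465 to 4.56 CPM in adult vehicle IP against 6.58 to 27.0 CPM in young vehicle IP. None of the 4 passed under edgeR, and 2 had an unadjusted p under 0.05, as did 2765 of all 15890 genes. Not every list was lower in adults. The sum of 5 microglia markers was 28.1 to 39.8 CPM in adult vehicle IP against 12.8 to 29.2 CPM in young vehicle IP, with overlap, and none passed. In vehicle supernatant 1 of the 5 passed as higher. Avp and Oxt, markers of magnocellular neurons, summed to 268 to 971 CPM in adult vehicle IP against 73.6 to 405 CPM in young vehicle IP, with overlap. The share of genes with no read was 7.88% to 13.6% in adult vehicle IP against 4.26% to 7.68% in young vehicle IP. None of the 4 GnRH neuron markers (Gnrh1, Six6, Kiss1r and Chga, all detected) passed in vehicle IP, and their sum was 2205 to 16339 CPM in adults against 1877 to 6995 CPM in the young. Gnrh1 made up most of that sum, at 1951 to 16067 CPM in adults against 1751 to 6817 CPM in the young. Its own rise was log2 1.23 ± 0.50 (unadjusted p = 0.0204, adjusted p = 0.178, edgeR). Between fractions, over the 4 conditions, 3 of the 4 GnRH neuron markers were higher and 1 lower in IP, where 24.4% of genes passed as higher and 21.7% as lower. With log2 Gnrh1 as a covariate, the rise of Gal in vehicle IP was log2 1.03 ± 0.19 (adjusted p = 6.26e-04). The libraries with the last 10 sample numbers were all young, and without them, an alternative chosen after seeing the data, the rise was log2 1.78 in IP (adjusted p = 0.014) and 0.96 in supernatant (adjusted p = 0.0034). The part of other cells' RNA and of the no-read share in the age difference was not tested, and in bulk tissue fewer cells of a type and less RNA per cell cannot be told apart.

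**Figure D2:**
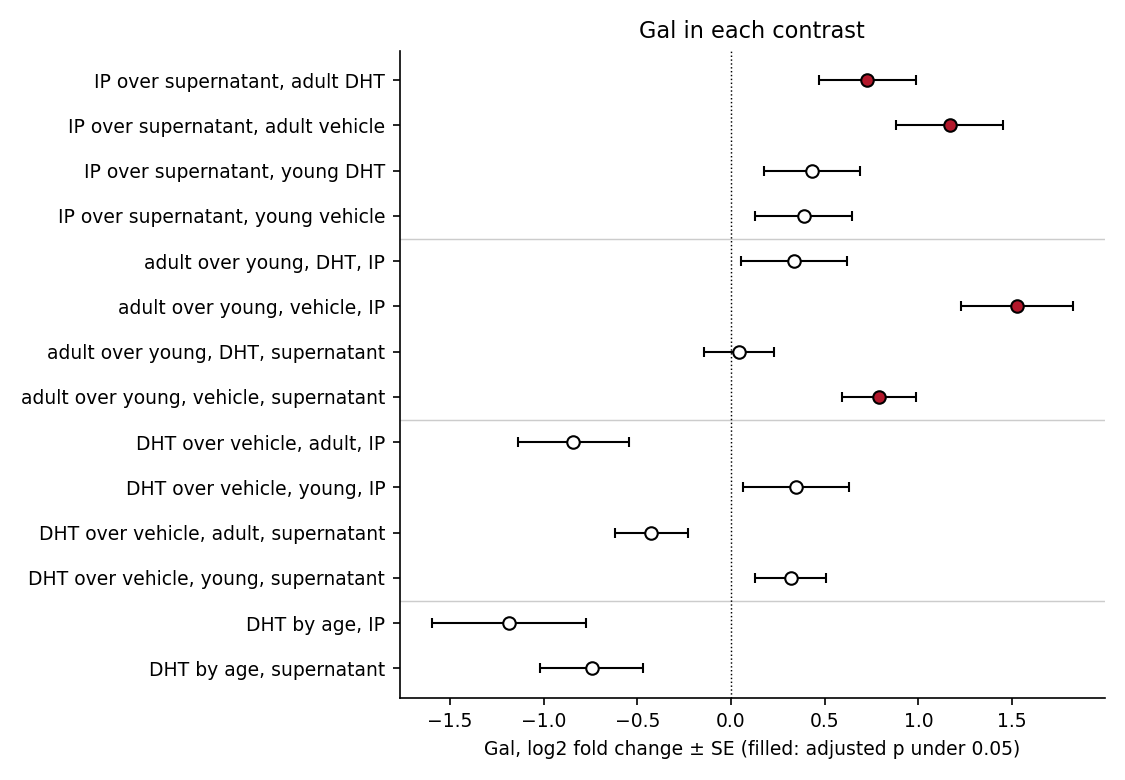
Log2 fold change of Gal with its SE (horizontal axis) in each contrast, with filled points where the adjusted p was under 0.05. The adult over young contrasts in vehicle mice (1.52 in IP, 0.79 in supernatant) and the IP over supernatant contrasts in adults (0.73 with DHT, 1.17 with vehicle) passed, and no DHT over vehicle contrast did.

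Prenatal DHT gave no call for Gal or for any receptor. Over the 14 tests of a member in a DHT contrast, edgeR, DESeq2 and voom each called 0, and each gave 2 with an unadjusted p under 0.05, both of them Gal in adults under edgeR. Over all genes edgeR called 0.0% in young IP, 0.00629% in adult IP and 0.0% in either supernatant contrast. It gave an unadjusted p under 0.05 to 239 of 15890 genes in young IP and 1318 of 15890 in adult IP. In supernatant it did so for 747 of 16286 genes in the young and 338 of 16286 in adults.

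In adult IP, Gal ran from 59.5 through a median of 112 to 210 CPM in DHT mice, against 125, 131, 215, 350 and 290 CPM in vehicle mice. The groups overlapped, and the mean was lower with DHT by log2 -0.84 ± 0.30 (adjusted p = 0.406, edgeR). In adult supernatant it ran from 52.7 to 97.6 CPM in DHT mice and from 80.3 to 134 CPM in vehicle mice, a log2 fold change of -0.43 ± 0.20 (adjusted p = 1.00, edgeR). In the young the values pointed the other way and did not pass, with log2 0.35 ± 0.28 in IP (adjusted p = 1.00) and 0.32 ± 0.19 in supernatant (adjusted p = 0.976). With Gnrh1 as a covariate the adult IP value was log2 -0.54 (adjusted p = 0.404).

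The DHT-by-age interaction of Gal, the DHT effect in adults minus that in the young, was log2 -1.19 ± 0.41 in IP (adjusted p = 0.783, edgeR) and -0.74 ± 0.27 in supernatant (adjusted p = 0.875). It did not pass in either fraction, and edgeR called 0.0% of all genes in it. The age contrasts in vehicle mice, the DHT contrasts in adults and these interactions share the 5 adult vehicle libraries of a fraction, so they are not separate observations of Gal.

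Within adult IP, Gal varied with Gnrh1 from library to library. Across the 11 adult IP libraries, log2(CPM + 1) of Gal and Gnrh1 had a Pearson r of 0.86 (permutation p = 6.4e-04, adjusted over 4 sets 0.00256) and a Spearman rho of 0.81 (permutation p = 0.00404, adjusted 0.0162). Without the 2 libraries farthest from the median of Gnrh1 r was 0.86, and it was 0.94 within the 6 DHT and 0.78 within the 5 vehicle libraries. After the treatment means had been subtracted r was 0.88 (permutation p = 9e-05). Across the 12 young IP libraries r was 0.61 (permutation p = 0.0346, adjusted 0.0692) and rho 0.60 (permutation p = 0.0423, adjusted 0.0846). There r was 0.43 within the 6 DHT and 0.83 within the 6 vehicle libraries. It was 0.52 without the 2 farthest libraries and 0.67 without the 5 libraries among the last sample numbers. Within those 5 libraries r was 0.32. With treatment means subtracted the young relation passed by r (0.67, adjusted permutation p = 0.0208) but not by rho (0.59, adjusted permutation p = 0.0951), and r was 0.45 without the 2 farthest libraries.

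In supernatant no such relation passed. Gnrh1 had a narrower range there, from 19.9 to 50.4 CPM against 664 to 16067 CPM in IP. The correlations of the fractions were not tested against each other, so a pass in adult IP does not by itself show a difference between fractions. Pearson r was -0.28 in the 11 adult libraries (permutation p = 0.406, adjusted 0.406) and 0.41 in the 12 young libraries (permutation p = 0.181, adjusted 0.241). Spearman rho was -0.18 in adults (permutation p = 0.596, adjusted 0.596) and 0.34 in the young (permutation p = 0.276, adjusted 0.368). Without the 2 farthest libraries r was -0.07 in adults and 0.08 in the young.

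**Figure D3:**
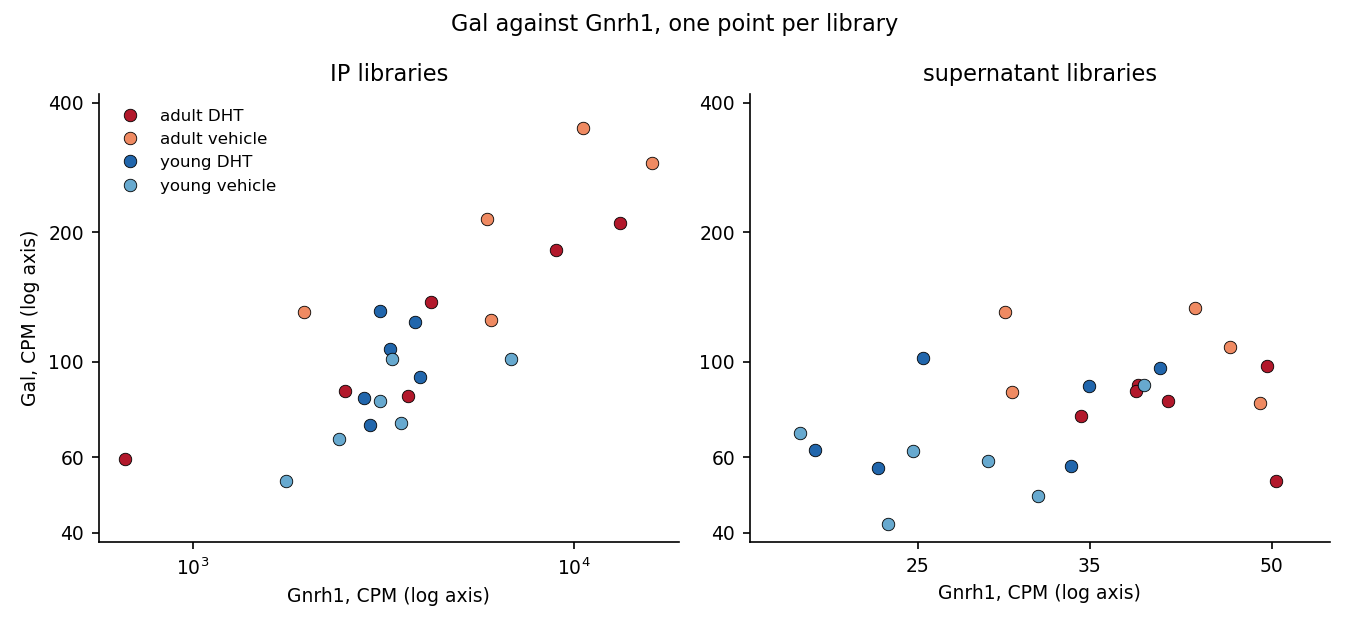
Gal against Gnrh1 in CPM, both on log axes, with a point per library and colours for age and prenatal treatment; IP libraries are at left and supernatant libraries at right. In IP the adult libraries run along a rising line (r = 0.86 on the log2 scale), while supernatant libraries, over a narrower range of Gnrh1, show no such line.

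Among genes averaging at least 5 CPM, those that varied most like Gal within groups over the 23 IP libraries were Ly6h (r = 0.91), Resp18 (0.89), Gpx3 (0.89), Pnoc (0.89) and Spint2 (0.89). Pnoc encodes the precursor of the neuropeptide nociceptin, and Resp18 a protein of secretory granules. Gnrh1 came 14th (r = 0.83) of 10449 named genes. Over the 23 supernatant libraries they were Pnoc (0.92), Scg2 (0.89), Resp18 (0.87), Emb (0.85) and Npdc1 (0.85), and Gnrh1 had an r of 0.18. Scg2 encodes secretogranin II, another granule protein. These correlations are across libraries that also vary in depth and cell make-up, and they are given without a test. Over the 8 group means the genes most like Gal were Als2cr4 (0.98), Tor3a (0.97), Wdr54 (0.97), Chchd6 (0.97) and Crhbp (0.97), of which the last encodes a binding protein of corticotropin-releasing hormone.

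Galr1, a Gi/Go-coupled receptor, was detected in both fractions but unevenly in IP. In adult DHT mice it ran from 0.0633 through a median of 1.15 to 3.55 CPM in IP, against 1.30, 2.96 and 3.73 CPM in supernatant. In adult vehicle IP it had 1, 291, 0, 131 and 141 counts, which is 0.0233, 7.45, 0, 3.28 and 3.69 CPM, against 2.03, 4.87, 4.42, 1.84 and 3.80 CPM in supernatant. In young DHT mice it ran from 0.15 through 2.71 to 4.24 CPM in IP, against 1.39, 1.84 and 3.05 CPM in supernatant, and in young vehicle mice from 0 through 1.68 to 5.41 CPM in IP, against 0.791, 1.70 and 2.77 CPM in supernatant. Of the 23 IP libraries 3 had no Galr1 read and 5 had under 3, while no supernatant library had fewer than 26, and IP values lay both above and below the supernatant range in 3 of the 4 conditions.

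Galr1 did not differ between IP and supernatant in the test (log2 -0.17 ± 0.48, adjusted p = 0.798, edgeR), where 46.1% of genes passed. Voom with sample weights put it lower in IP (log2 -1.88, adjusted p = 0.00747). By group mean Galr1 was highest in adult vehicle supernatant (3.39 ± 1.38 CPM, SD, n = 5), followed by adult vehicle IP (2.89 ± 3.09, n = 5), adult DHT supernatant (2.71 ± 0.98, n = 6), young DHT IP (2.40 ± 1.92, n = 6), young DHT supernatant (2.04 ± 0.61, n = 6), young vehicle IP (1.88 ± 2.03, n = 6), young vehicle supernatant (1.72 ± 0.66, n = 6) and adult DHT IP (1.25 ± 1.23, n = 6). Neighbours in that order overlapped throughout. In the mice without Cre it was at 0.708 CPM in IP (95% Poisson interval 0.449 to 1.06) and 1.32 CPM in supernatant (0.973 to 1.74).

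In supernatant, Galr1 rose with age in vehicle mice. The adult vehicle libraries ran from 1.84 to 4.87 CPM and the young vehicle libraries from 0.791 to 2.77 CPM, with overlap. The rise was 1.94-fold (log2 0.96 ± 0.31, adjusted p = 0.0299, edgeR), in the contrast where 20.3% of genes passed. The call was lost under voom (adjusted p = 0.0543) and in 6 of the 11 fits that left out 1 library, with adjusted p up to 0.106 without adult vehicle replicate 2. In DHT mice the same change was log2 0.41 ± 0.30 (adjusted p = 0.349). DHT against vehicle gave log2 -0.33 ± 0.31 in adult supernatant (adjusted p = 1.00) and 0.22 ± 0.30 in young supernatant (adjusted p = 0.990), and no age or DHT contrast of Galr1 within IP passed, with adjusted p from 0.797 to 1.00.

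Galr1 had less close company than Gal among the other genes. Over the 23 supernatant libraries, within groups, the named genes most like it were Tonsl (r = 0.71), Golga4 (0.70), Gabpb1 (0.68), Adcy7 (0.68) and Anks3 (0.68). Adcy7 encodes an adenylyl cyclase. These are a description over low counts, with no test.

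Galr2, the Gq-coupled receptor, was almost confined to supernatant libraries. It had 0 reads in 22 of the 23 IP libraries, and 3 counts (0.0751 CPM) in adult vehicle IP replicate 4. In supernatant it ran from 0.081 through a median of 0.164 to 0.422 CPM in adult DHT mice and was at 0.129, 0.215, 0.123, 0.215 and 0.18 CPM in adult vehicle mice. In the young it ran from 0 through 0.151 to 0.389 CPM with DHT and from 0 through 0.0798 to 0.548 CPM with vehicle. The highest supernatant library held 18 Galr2 counts, so every value rests on few reads.

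Summed over Cre mice, Galr2 had 3 counts in IP and 160 in supernatant, and per counts sequenced it was 51.6 times higher in supernatant than in IP (95% exact interval 17.4 to 253, counting error only). Against a floor of 3 counts over the IP group, supernatant was at least 14.6-fold higher in adult DHT, 15.4-fold in young DHT and 10.5-fold in young vehicle mice. In adult vehicle mice the supernatant-to-IP ratio was 11.2 (3.57 to 56.6). Over the 4 conditions the test gave an adjusted p of 6.92e-08 (edgeR, fitted log2 fold change -5.13 ± 0.64, which depends on the prior count), where 21.7% of genes passed as lower in IP. Galr2 entered that test through its supernatant counts alone, and the filter on low counts dropped it from 5 of the 46 fits that left out 1 library. With no filter the adjusted p was 5.16e-08 (edgeR). Of the 16660 genes tested, 19 (0.114%) had no read in at least 22 of the 23 IP libraries. That share is over genes of any level, while Galr2 was scarce in supernatant too, so it does not show Galr2 to be unusual among scarce genes. IP libraries had more genes with no read, with group medians of 5.37% to 9.97% in Cre mice against at most 1.31% in supernatant. The part of this in the Galr2 values was not tested. The mice without Cre had 0 Galr2 reads in both libraries, which allows up to 0.114 CPM in IP and 0.099 CPM in supernatant by the exact interval.

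In supernatant Galr2 did not pass for age or treatment. The log2 fold change of adult over young was 0.07 ± 0.67 in DHT (adjusted p = 0.954, edgeR) and 0.30 ± 0.71 in vehicle mice (adjusted p = 0.814). DHT over vehicle gave 0.22 ± 0.69 in adults (adjusted p = 1.00) and 0.45 ± 0.69 in the young (adjusted p = 0.990). No change of Galr2 in supernatant was detectable at this depth.

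**Figure D4:**
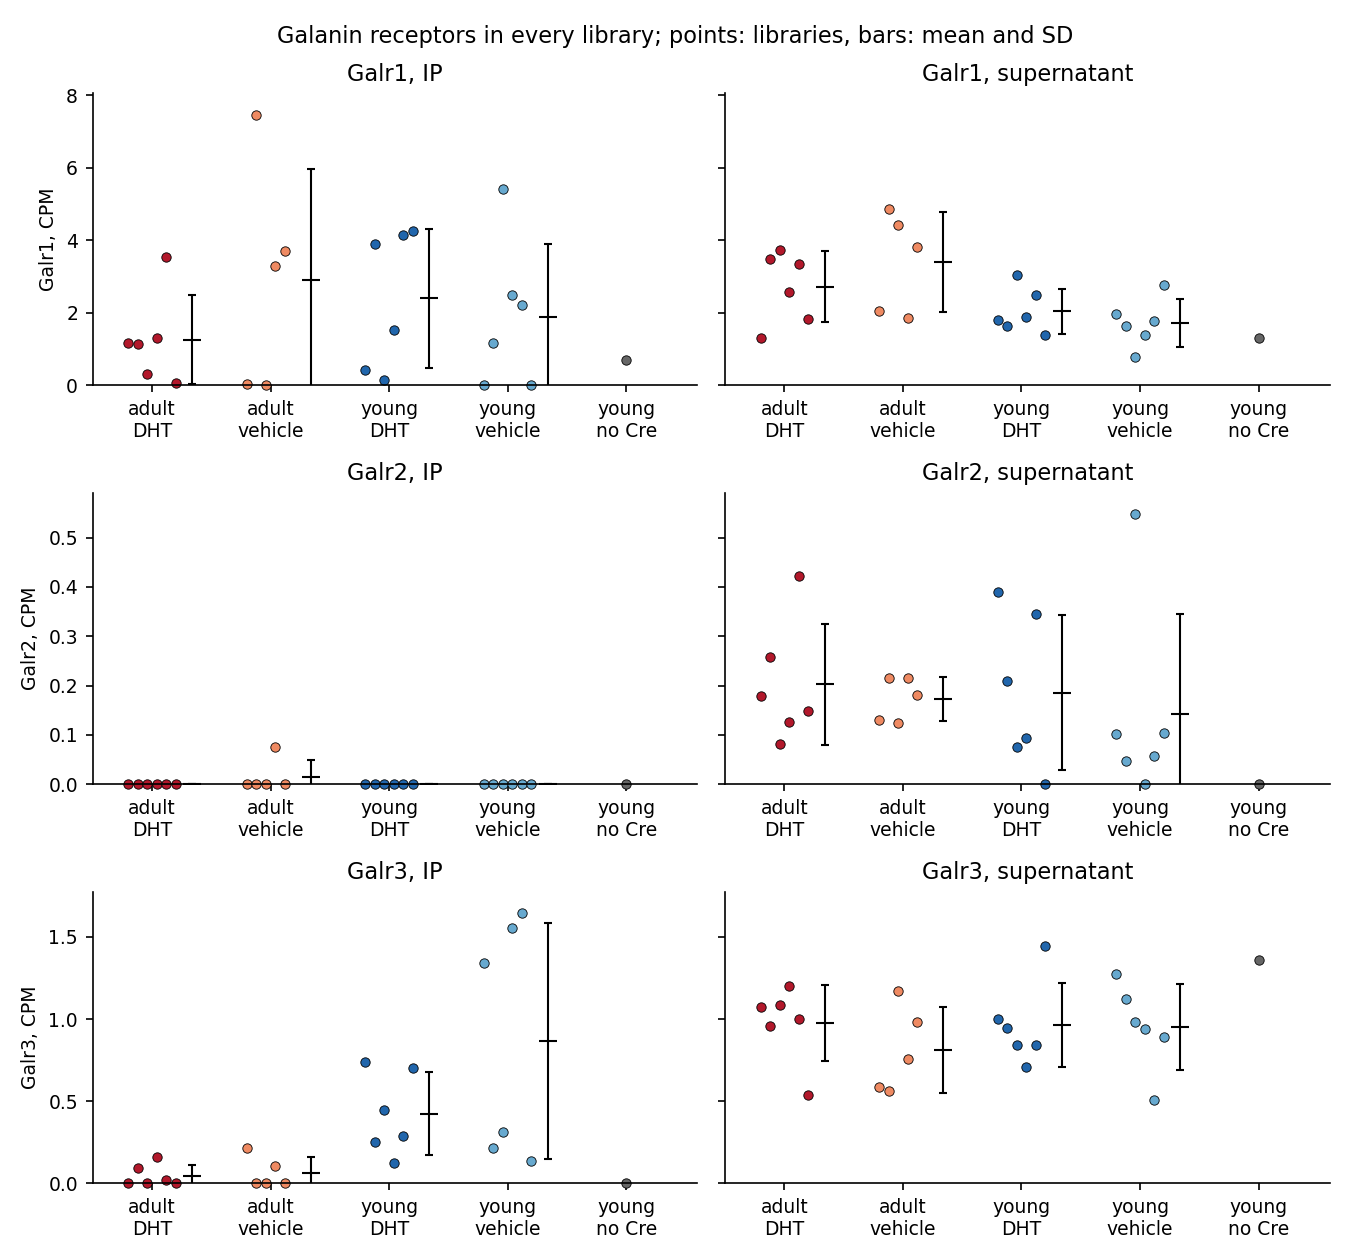
Galr1, Galr2 and Galr3 in CPM (vertical axes, scaled per gene) in every library, with IP at left and supernatant at right; points are libraries, bars give mean and SD and are cut at 0. Galr2 stands at 0 in all but 1 IP library, and Galr3 stays at or below 0.211 CPM in adult IP.

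Galr3, the second Gi/Go-coupled receptor here, was lower in IP than in supernatant over the 4 conditions, and within conditions it passed in adults and not in the young. In adult DHT IP it had a lowest value of 0, a median of 0.0106 and a highest value of 0.162 CPM, against 0.538, 1.04 and 1.20 CPM in supernatant, without overlap. In adult vehicle IP it was at 0.211, 0, 0, 0.102 and 0 CPM, against 0.588, 0.564, 1.17, 0.757 and 0.983 CPM in supernatant, again without overlap. Every IP library lay below every supernatant library for 7.65% of all genes with adult DHT and for 11.9% with adult vehicle. In young DHT mice Galr3 ran from 0.122 through 0.365 to 0.737 CPM in IP, against 0.708, 0.893 and 1.44 CPM in supernatant. In young vehicle mice the IP libraries split, with 3 at 1.34 to 1.65 CPM and 3 at 0.133 to 0.313 CPM, against 0.504, 0.962 and 1.27 CPM in supernatant.

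Over the 4 conditions the log2 fold change of Galr3 was -2.29 ± 0.42 (adjusted p = 1.05e-05, edgeR), where 21.7% of genes passed as lower. It was -4.29 ± 0.89 in adult DHT (adjusted p = 4.1e-04, with 9.83% of genes lower), -3.55 ± 0.94 in adult vehicle (adjusted p = 0.0045, with 11.2% lower), -1.16 ± 0.77 in young DHT (adjusted p = 0.341) and -0.16 ± 0.76 in young vehicle mice (adjusted p = 0.932). From summed counts, Galr3 was 21.8 times higher in supernatant than in IP in adult DHT mice (95% exact interval 11.6 to 46.1) and 12.3 times in adult vehicle mice (7.01 to 23.5). These intervals cover counting error only and not the spread among libraries. The adult vehicle call did not hold when only its 2 groups were fitted (adjusted p = 0.0639), and the young DHT value passed under voom (log2 -1.44, adjusted p = 0.0446).

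Whether the gap of Galr3 differed between ages depended on the tool. The interaction was log2 -3.13 ± 1.12 in DHT mice (adjusted p = 0.192) and -3.39 ± 1.17 in vehicle mice (adjusted p = 0.152) under edgeR, which called 0.882% and 1.04% of genes. It passed under DESeq2 (adjusted p = 0.0363 and 0.0144 in DHT and vehicle mice), whose share over all genes is not given here. Within IP, adult over young gave log2 -3.11 ± 1.34 in DHT mice (adjusted p = 0.173) and -3.70 ± 1.47 in vehicle mice (adjusted p = 0.171), the second of which passed under voom (adjusted p = 0.0284). In supernatant the adult over young values were 0.01 ± 0.25 in DHT and -0.26 ± 0.27 in vehicle mice and did not pass (adjusted p = 0.984 and 0.543 in DHT and vehicle mice). The share of genes with no read was also higher in adult than in young IP libraries, at medians of 9.58% and 9.97% in adult DHT and vehicle IP against 5.37% and 6.09% in young DHT and vehicle IP, and its part in the Galr3 values was not tested. In the mice without Cre, Galr3 had no read in IP, with an exact upper limit of 0.114 CPM, and was at 1.36 CPM in supernatant (1.02 to 1.80).

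Genes of the galanin pathway were more often called lower than higher in IP. Of 43 genes tested in 7 lists of the pathway and its setting, 6 were higher and 14 lower in IP (edgeR, adjusted p under 0.05), with a median log2 fold change of -0.23 against 0.00 over all genes, where 24.4% passed as higher and 21.7% as lower. Voom with sample weights called 24 lower, but its share over all genes is not given here, so that count has no background to be read against. Of the 5 Gi/Go alpha subunits, 4 were lower, Gnao1 (log2 -0.40), Gnai1 (-0.38), Gnaz (-0.35) and Gnai2 (-0.34), and Gnai3 did not pass (0.22, adjusted p = 0.0599). Of 4 GIRK channel genes only Kcnj9 passed (-0.27). Of 7 adenylyl cyclases Adcy1 was higher (0.89), Adcy3 (-0.62) and Adcy5 (-0.61) were lower, and 4 did not pass. Of 8 genes of the Gq and phospholipase C route, Gnaq (-0.84) and Gna11 (-0.56), which encode Gq and G11 alpha subunits, were lower and 6 did not pass.

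Of 6 genes that process peptide precursors, 3 were higher in IP. They were Scg5 (log2 0.80 ± 0.09), whose protein is a chaperone of the convertase encoded by Pcsk2, Pcsk1 (0.45 ± 0.17), which encodes another convertase, and Pcsk1n (0.40 ± 0.10), which encodes an inhibitor of the Pcsk1 product. Pcsk2, Cpe and Pam, the amidating enzyme, did not pass. Of 5 genes of hormone signalling that act on galanin in the hypothalamus or pituitary, 3 were lower in IP, Stat5a (log2 -1.06 ± 0.44), Esr1 (-0.81 ± 0.27), estrogen receptor alpha, and Stat5b (-0.64 ± 0.11), while Pgr and Prlr did not pass. Of 8 genes listed for preoptic galanin neurons other than GnRH neurons, Tac1 (0.82) and Gad1 (0.35) were higher, Slc32a1 (-2.12), the vesicular GABA transporter, and Th (-0.31) were lower, and 4 did not pass. Whether the listed genes are specific to those neurons was not tested. Galp, the gene of the related galanin-like peptide, was at or below 0.154 CPM in every library.

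**Figure D5:**
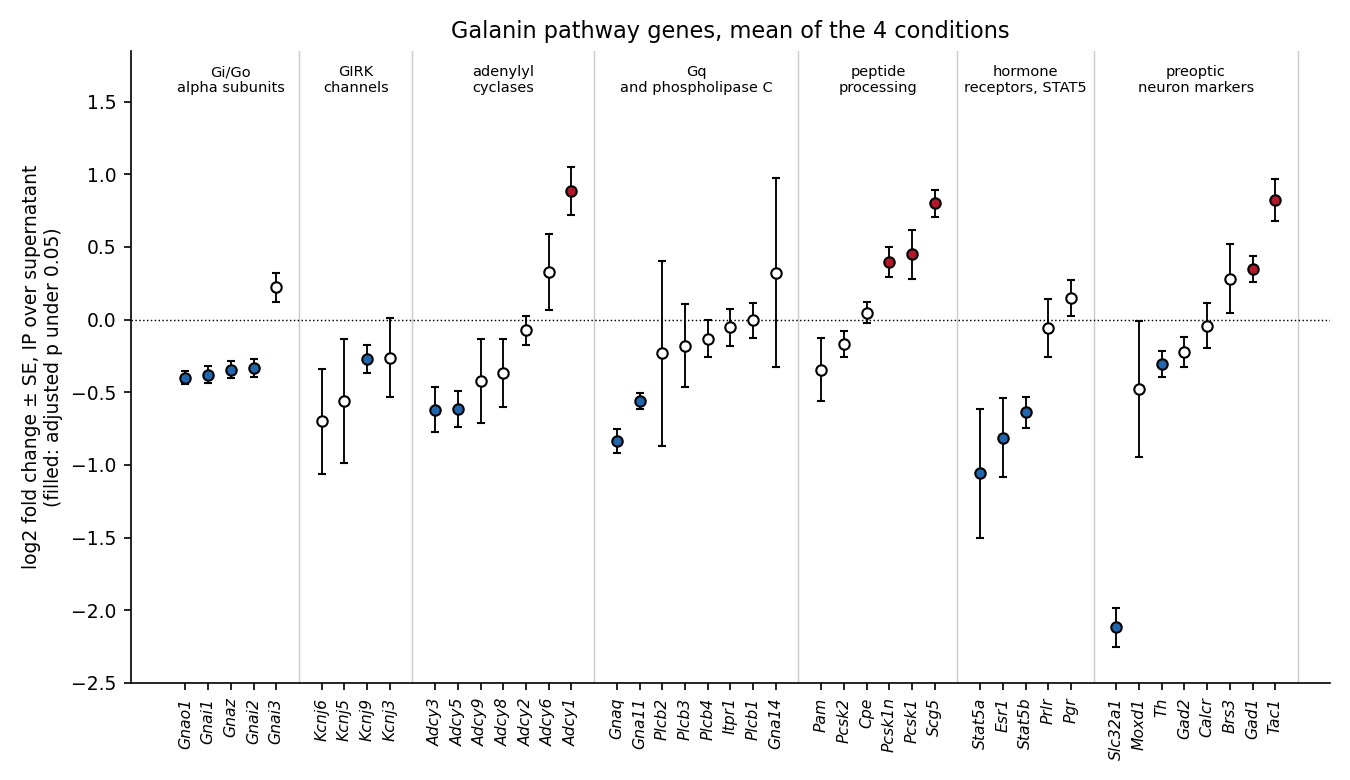
Log2 fold change of IP over supernatant with its SE (vertical axis), mean of the 4 conditions, for the 43 genes of the 7 lists, with filled points where the adjusted p was under 0.05. Of the 14 lower calls, 4 are Gi/Go subunits and 3 are hormone signalling genes, from Gnai2 at -0.34 to Stat5a at -1.06, and Slc32a1 is lowest of the called genes at -2.12.

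In the age contrasts the calls in these lists were nearly all upward, and most were in supernatant. In DHT mice 11 of the 43 were higher and 1 lower in adult than in young supernatant (edgeR), where 9.47% and 10.5% of genes were higher and lower. The 11 were Plcb2 (log2 1.52), Stat5a (0.79), Itpr1 (0.69), Adcy3 (0.54), Kcnj3 (0.50), Gad1 (0.48), Th (0.47), Gnai1 (0.36), Pcsk2 (0.31), Pgr (0.22) and Gna11 (0.22), and Moxd1 (-0.62) was lower. Without the last 10 sample numbers 2 were higher in DHT supernatant, and 6 were higher without adult DHT replicate 5 or young DHT replicate 4 and 7 without young DHT replicate 5 or 6. The shares over all genes in these reduced fits are not given here. In vehicle mice 13 were higher and 0 lower in adult than in young supernatant (edgeR), against 10.1% of all genes higher and 10.2% lower. An unadjusted p under 0.05 was given there by edgeR to 16 of the 43 and to 5315 of all 16286 genes. The 13 were Prlr (log2 0.84), the prolactin receptor, Pgr (0.31), Calcr (0.80), Pcsk1 (0.79), Pcsk2 (0.57), Itpr1 (0.63), Gna14 (1.54), Adcy3 (0.77), Adcy9 (0.65), Adcy5 (0.53), Kcnj5 (0.67), Kcnj3 (0.56) and Gnai1 (0.26).

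In IP the age contrasts named fewer of them. In DHT mice Itpr1 (log2 1.52), Gad2 (0.97), Gad1 (0.91), Th (0.84) and Gnai1 (0.61) were higher and Pcsk1n (-0.91) was lower in adult than in young IP, where 3.8% passed as higher and 3.32% as lower. Without the last 10 sample numbers edgeR called 0 of the 43 in either direction there, and DESeq2 on all libraries called 9 as higher. Gnai1 (log2 0.77) and Scg5 (0.72) were higher in adult vehicle IP and none was lower, where 2.04% of genes passed as higher under edgeR. DESeq2 and voom called 5 and 3 of the 43 there. The shares over all genes under DESeq2, voom and the fit without the last 10 sample numbers are not given here. With all libraries, Gnai1 alone was called as higher with age in both fractions and both treatments. DHT against vehicle called 0 of the 43 in each of the 4 contrasts under edgeR, DESeq2 and voom. At an unadjusted p under 0.05 edgeR gave 2 of the 43 in adult IP, 0 in young IP, 2 in adult supernatant and 3 in young supernatant. Over all genes it gave 1318 of 15890 in adult IP and 239 of 15890 in young IP. In supernatant it gave 338 of 16286 in adults and 747 of 16286 in the young.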

How the data were processed

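Polyadenylated RNA of IP and supernatant was sequenced after SMARTer v4 amplification, per the labels' protocols, a method that does not mark the strand. The authors deposited estimated counts per gene for 48 libraries (98.49% of values whole). Per the submitters' processing notes their tools were TopHat2 2.0.13 with Bowtie2 2.2.1 on mm10, HTSeq 0.6.1, Cuffdiff 2.1.1, Cufflinks, DESeq2 1.14.1 and FastQC 0.11.3. Which tool gave the counts, and the annotation, are not given in the sources used here.

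Counts were rounded and tested with edgeR 4.0.16 in R 4.3.3 (filterByExpr with minimum count 10 and total 15, TMM, robust quasi-likelihood F test, Benjamini-Hochberg adjustment over all genes, called at an adjusted p under 0.05). Fractions were compared in 1 model of 46 libraries (16660 genes), age and DHT in a fit of each fraction's 23 libraries (15890 genes in IP, without Galr2, and 16286 in supernatant). SEs were taken from the F statistic. CPM is the count relative to the library total, and exon lengths and the printed sequence are from GENCODE M21. Correlations used log2(CPM + 1) and two-sided permutation tests with 100000 resamples. Poisson intervals and the exact intervals of summed counts cover counting error only.

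Named were the members and Gnrh1 and, of each pathway list, the genes called, with the 5 genes most like Gal and Galr1. Not every contrast of the receptors and of Gnrh1 is printed. The members and lists were chosen with earlier results of these data known. The fit was tested on simulated data. Alternatives were DESeq2 1.42.0, voom with sample weights (limma 3.58.1), RLE size factors, other filters, fits of the compared groups, a replicate block, a term for the last 10 sample numbers, a Gnrh1 covariate and leaving out each library, with a fit without the last 10 sample numbers added after seeing the data. The libraries without Cre entered no test. Spx was not analysed here, and some members of the lists are not reported here.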

Additional observations from a re-analysis of the deposited data

Results flagged for a closer look

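Within groups of 5 or 6 libraries, the values of the 4 genes gave 29 sets with some spread, and in 4 of them 1 library stood apart by Dixon's criterion at its 95% level, which flags about 1 in 20 sets by chance. Galr1 was at 3.55 CPM in adult DHT IP replicate 5, above the others of its group. Galr2 was at 0.548 CPM in young vehicle supernatant replicate 3, and at 0.0751 CPM in adult vehicle IP replicate 4, the single IP library with any Galr2 read. Where all other libraries are at 0, as in this set, any read meets the criterion whatever its size. Galr3 was at 0.538 CPM in adult DHT supernatant replicate 6, below the others of its group. None was a value of Gal, and no interaction of the 4 genes passed an adjusted p of 0.05 under edgeR.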

How the results depend on the processing

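For the 4 genes, 267 of 279 values under another tool, filter, scaling or term, and 587 of 616 with 1 library left out, kept their direction and their side of the threshold. These totals include uncalled results that stayed uncalled, so they do not measure how firm the calls were. A fit without an adjusted p was judged by direction alone. Under voom with sample weights, Gal in adult DHT IP against supernatant was 0.62 (log2 here and below) and no longer passed, Galr1 in vehicle supernatant with age was 0.88 and no longer passed, and Galr1 in IP against supernatant (-1.88), Galr3 in young DHT IP against supernatant (-1.44) and Galr3 in vehicle IP with age (-4.33) came to pass. Under DESeq2 the Galr3 fraction-by-age interactions passed (-3.20 in DHT, -3.44 in vehicle mice). When only the compared groups were fitted, Gal in adult DHT IP against supernatant (0.72) and Galr3 in adult vehicle IP against supernatant (-3.57) no longer passed. Without the last 10 sample numbers, the uncalled values of Gal for fraction by treatment in the young (-0.043) and for age in DHT supernatant (-0.10) changed sign. The cause of these changes was not tested.

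With 1 library left out, Gal in adult DHT IP against supernatant ran from 0.53 to 0.87 and lost its call in 7 fits, Galr1 in vehicle supernatant with age ran from 0.77 to 1.144 and lost it in 6, and the Galr3 fraction-by-age value in vehicle mice ran from -4.58 to -3.09 and passed in 1. Uncalled values that changed sign were Gal for fraction by treatment in the young (-0.10 to 0.16), Gal for age in DHT supernatant (-0.038 to 0.15) and Galr3 in young vehicle IP against supernatant (-0.44 to 0.049). After treatment means were subtracted, the correlation of Gal with Gnrh1 in young IP was 0.67 and passed, while Spearman rho (0.59) did not.

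Supernatant is what a capture left, yet the main fit treated the libraries of both fractions as independent. IP and supernatant share replicate numbers, but the labels do not say that a number marks the same animals. By number, Gal was higher in IP in 4 of 6 adult DHT, 5 of 5 adult vehicle, 6 of 6 young DHT and 6 of 6 young vehicle libraries. Same-numbered libraries had correlations of their deviations from -0.08 to 0.44, and 19 of 23 IP libraries correlated best with their own number. That is a hint from the data that numbers mark pairs, which the labels do not state. With the number as a replicate block, Gal in IP against supernatant was 0.62 (adjusted p = 6.72e-06) and the call of Galr1 in vehicle supernatant with age was lost (0.84, adjusted p = 0.0582), with no other call of the 4 genes changed. For 14 lower calls among the 43 pathway genes in IP, voom gave 24 and the block 23, both without a share over all genes. Galr2 rests on at most 18 counts a library and was tested in IP only without a filter on low counts.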
